A study of Mus musculus with 12 samples.

Results

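Marked plasma cells of mouse bone marrow were compared between day 270 and day 60 after tamoxifen. The comparison took the 3 libraries titled as human CD4+ at day 270 and the 3 titled so at day 60, which are 6 of the 12 libraries of the series, and covered every gene that passed a filter on low values, 12704 of 14219. All mice were of the C57BL/6 strain and of the genotype BLTcre.mcl1fl/+, so that the cells compared share the Cre transgene, 1 floxed Mcl1 allele and the tamoxifen treatment. Tamoxifen started the expression of a human CD4 reporter, and plasma cells with the reporter (called marked here) or without it (unmarked) were sorted 60 or 270 days later, with 3 libraries per group. The sources used here do not give the cells in which the Cre transgene is active, the sort gates, the age of the mice or whether a library pools animals. The comparison asks which transcripts differ between marked cells sorted at the earlier and at the later day, and the unmarked cells of the same days are set beside it.

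Plasma cells are the antibody-secreting end stage of the B cell lineage. They depend on a large endoplasmic reticulum, on the transcription factors Blimp-1 (Prdm1), IRF4 and XBP1, and on survival signals from the marrow that act through receptors such as BCMA (Tnfrsf17) and keep up the anti-apoptotic protein MCL1. Some are lost soon after they reach the marrow and others persist for much of the life of the animal. A mark started by a drug lets marked cells be sorted at later times. The cells with active Cre are not given, so marked precursors may have formed marked plasma cells after the drug. The marked cells of day 270 are therefore not known to be those of day 60 grown older.

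Levels are in CPM, reads scaled to 1 common total per library. A difference is given as the log2 fold change of day 270 over day 60 on the log2(CPM + 0.5) scale with its standard error, so it understates the change of genes at a low level. A gene was called where limma gave a Benjamini-Hochberg adjusted p under 0.05 over all 12704 genes. Means are given ± SD (n = 3 libraries). In RNA from sorted bulk cells, fewer cells of a type and less RNA per cell cannot be told apart.

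The 6 marked libraries held 7449468 to 15943547 reads and 11022 to 12947 genes with a read, and the unmarked ones 10392304 to 14531419 reads. Library 2 of day 270 stood apart, since ribosomal-RNA-like features took 30.0% of its reads and Jchain 7.90%. In library 2 of day 60 such features took 11.99%, and in the other 4 marked libraries they took 0.237% to 0.528%. Marked libraries of a group differed by more than counting error, the ratio of chi-square to its degrees of freedom being 50.4 to 487.9. Unmarked libraries of a group differed less, with 14.9 to 38.3. All 8 plasma cell markers had reads in both marked groups, and Sdc1, the gene of the plasma cell antigen CD138, was at 2329, 1751 and 2171 CPM in the day 270 libraries and at 2059, 1748 and 2222 CPM in the day 60 libraries. Scaling by TMM in place of total reads moved the median of all genes by -0.10 on the log2 scale, from 0.02 to -0.08. Levels of single genes below are scaled by total reads.

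limma called 4 of the 12704 genes, 0.0315%. Slamf9, Hepacam2 and Scd1 rose between day 60 and day 270 (0.0236% of genes), and Fas fell (0.00787%). At an unadjusted p under 0.05 there were 1225 genes (9.64%), 691 of them higher (5.44%) and 534 lower (4.2%) at day 270. Of all genes, 52.1% had a positive and 47.9% a negative log2 fold change. The 3 libraries of day 270 lay wholly above or below those of day 60 for 1334 genes, 10.5% of those tested, of which 821 (6.46%) were higher and 513 (4.04%) lower. That balance changed with the scaling, to 686 higher and 910 lower with TMM. It was 804 and 799 where the features resembling ribosomal RNA and Jchain were left out of the totals.

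**Figure D1:**
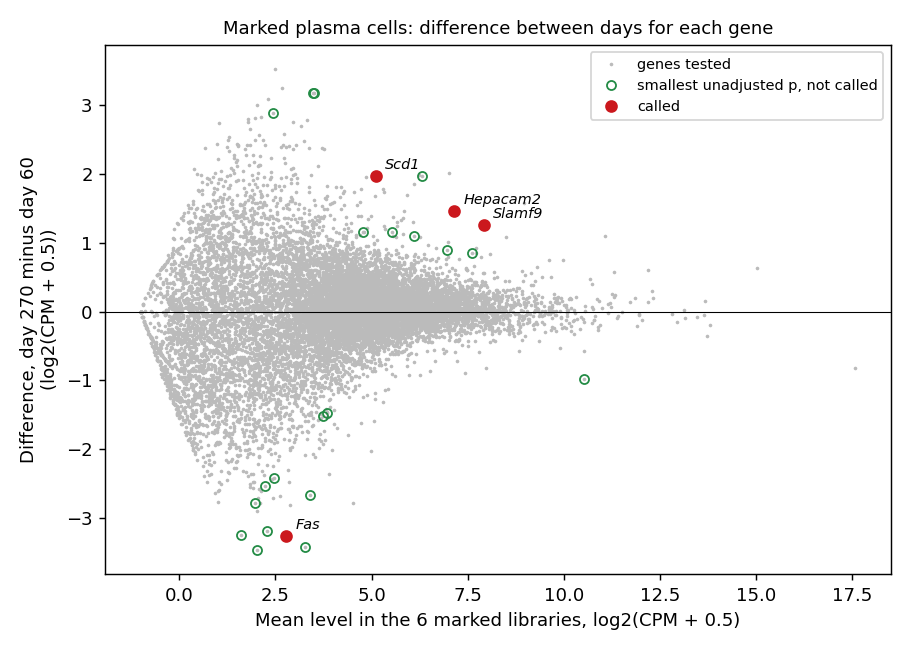
Difference between days in marked cells (y axis, log2 fold change of day 270 over day 60) against the mean level in the 6 marked libraries (x axis, log2(CPM + 0.5)) for the 12704 genes. Filled red points are the 4 called genes, and open green circles the 20 genes of small p, not called, that are described by their values; 3 called genes lie above the line of no difference and Fas lies below it.

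The promoters of the called genes are shown because these are the genes on which the comparison turns. They run from 250 bases before to 50 bases after the transcription start on the gene's own strand, and are taken from RefSeq on GRCm38.p6, which had an entry for Slamf9 (plus strand, chr1:172475110-172475409), Hepacam2 (minus strand, chr6:3494449-3494748) and Fas (plus strand, chr19:34290409-34290708). Scd1 was not in that table. Capitals mark CACGTG, a palindromic E-box that reads the same on both strands.
Slamf9: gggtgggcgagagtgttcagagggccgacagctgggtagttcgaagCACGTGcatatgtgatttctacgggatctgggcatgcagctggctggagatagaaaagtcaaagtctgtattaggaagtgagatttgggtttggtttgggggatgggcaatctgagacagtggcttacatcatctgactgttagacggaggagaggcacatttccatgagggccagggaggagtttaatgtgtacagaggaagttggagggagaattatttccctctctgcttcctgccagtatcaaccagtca
Hepacam2: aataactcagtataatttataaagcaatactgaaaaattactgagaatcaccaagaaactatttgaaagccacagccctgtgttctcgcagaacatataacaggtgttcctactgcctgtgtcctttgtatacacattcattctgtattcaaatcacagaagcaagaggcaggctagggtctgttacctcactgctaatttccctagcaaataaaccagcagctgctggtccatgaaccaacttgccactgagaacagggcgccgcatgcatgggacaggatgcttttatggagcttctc
Fas: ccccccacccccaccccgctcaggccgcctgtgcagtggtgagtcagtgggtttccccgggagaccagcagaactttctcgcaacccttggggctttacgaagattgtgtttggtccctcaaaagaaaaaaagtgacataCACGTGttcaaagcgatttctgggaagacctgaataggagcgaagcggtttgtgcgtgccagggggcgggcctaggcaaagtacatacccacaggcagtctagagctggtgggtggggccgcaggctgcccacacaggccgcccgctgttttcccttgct

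In Slamf9 the first of the 6 letters was at position -204 from the start and in Fas at -110, and the Hepacam2 window did not hold them. That window lies inside the Hepacam2 gene span, which on the minus strand begins at 3498298. Sequence around that end of the span was not searched. CACGTG stood in 7.15% of all 32851 promoter windows of the table. Among the 8915 tested genes with a window, 1067 (11.97%) had it in at least 1 of their windows. It was in 10 of the 19 lysosome genes that had a window (52.6%), 1 of the groups described below, and in 2 of the 15 genes of sterol and fatty acid synthesis. These are matches of letters and no measurement of binding.

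Slamf9 encodes a surface protein of the SLAM family of immune receptors (ENSMUSG00000026548, GRCm38 chromosome 1, 172475358 to 172478575). Its level was 294, 346 and 387 CPM in the 3 marked libraries of day 270 and 158, 128 and 143 CPM in those of day 60. The groups did not overlap, and the means were 342 ± 46.2 and 143 ± 15.1 CPM. The log2 fold change was 1.26 ± 0.19 (adjusted p 0.0264). In unmarked cells the means were 172 ± 19.4 and 97.2 ± 25.7 CPM, without overlap as in 12.8% of genes there, with a log2 fold change of 0.85 that did not pass (adjusted p 0.325).

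Hepacam2 encodes an adhesion molecule of the immunoglobulin superfamily (ENSMUSG00000044156, chromosome 6, 3457096 to 3498298). It was at 140.4, 256 and 232 CPM at day 270 and at 85.1, 62.6 and 74.1 CPM at day 60 in marked cells. Library 1 of day 270 was the lowest of its group and still lay above every day 60 library. The means were 209.6 ± 61.01 and 73.9 ± 11.3 CPM, a log2 fold change of 1.46 ± 0.23 (adjusted p 0.0264). In unmarked cells Hepacam2 had 181 ± 31.3 and 83.2 ± 16.1 CPM, with a log2 fold change of 1.12 (adjusted p 0.288).

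Scd1 encodes stearoyl-CoA desaturase, which makes monounsaturated fatty acids from saturated ones (ENSMUSG00000037071, chromosome 19, 44394455 to 44407879). Its marked libraries had 57.6, 42.96 and 63.1 CPM at day 270 and 19.8, 12.3 and 9.83 CPM at day 60. The lowest day 270 library was above the highest of day 60. The means were 54.6 ± 10.4 and 13.97 ± 5.21 CPM, and the log2 fold change was 1.97 ± 0.32 (adjusted p 0.0314). In unmarked cells the means were 84.1 ± 0.621 and 38.5 ± 21.1 CPM, and 1 day 60 library stood at 62.9 CPM against 26.4 and 26.3 in the others (log2 fold change 1.24, adjusted p 0.654).

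Fas encodes the death receptor CD95, which starts apoptosis when Fas ligand binds it (ENSMUSG00000024778, chromosome 19, 34290666 to 34327772). It was at 1.44, 0 and 1.51 CPM in the marked libraries of day 270 and at 13.1, 13.7 and 8.40 CPM in those of day 60. The day 270 level rested on 37 reads in all, with no read in library 2, and the day 60 level on 371. The means were 0.986 ± 0.855 and 11.7 ± 2.90 CPM, and the log2 fold change was -3.26 ± 0.52 (adjusted p 0.0264). Unmarked cells had 21.03 ± 5.15 CPM at day 270 and 25.7 ± 6.45 CPM at day 60, and their libraries overlapped (log2 fold change -0.28, adjusted p 1). The day difference of Fas in marked cells minus that in unmarked cells was -2.98 ± 0.73 on the log2 scale. That difference had an unadjusted p of 7.18e-04 and an adjusted p of 0.9999, so it did not pass over all genes.

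**Figure D2:**
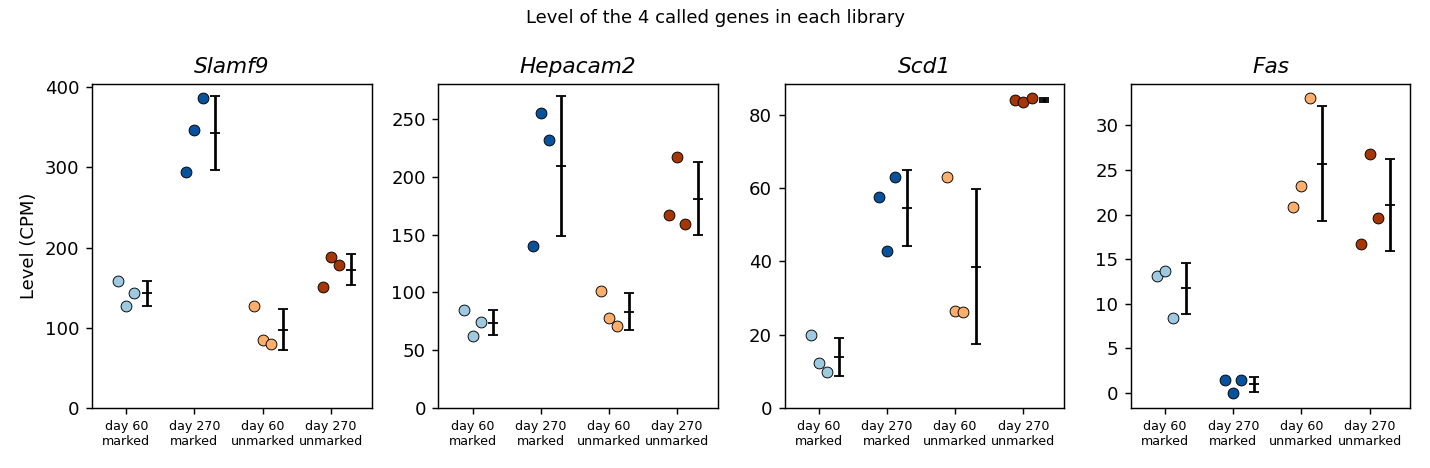
Level (CPM) of the 4 called genes in each of the 12 libraries, by day and population; points are libraries and bars are the mean ± SD of 3. In marked cells the day 60 and day 270 libraries of each gene are separate, with Slamf9, Hepacam2 and Scd1 higher at day 270 and Fas lower.

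Replicate 1 of every group carries neighbouring library numbers in the labels, apart from the other libraries. Between the replicate 1 libraries the marked day difference was 0.90 for Slamf9, 0.72 for Hepacam2, 1.52 for Scd1 and -2.81 for Fas on the log2 scale. Over replicates 2 and 3 it was 1.44, 1.83, 2.20 and -3.48 in the same order. Each gene kept its direction in both sets.

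The number of calls rested on single libraries. It was 151 without library 1 of day 270 (38 higher and 113 lower, the 4 genes among them), 3 without library 2 and 1 without library 3 of that day. Without libraries 1, 2 and 3 of day 60 it was 3, 0 and 0. Without library 2 of both days, the libraries richest in reads resembling ribosomal RNA, limma called 0 genes, with 1381 at an unadjusted p under 0.05 and 0.168 as the lowest adjusted p. With the 6 marked libraries fitted alone, so that unmarked libraries gave no part of the spread, it called 0. There 656 genes had an unadjusted p under 0.05, and the lowest adjusted p was 0.531. limma-voom called 0 (1175 at an unadjusted p under 0.05), edgeR 2, Fas and Fcrl5, and DESeq2 121. All 4 genes were among the 121. Over the 20 alternatives Fas was called in 13 with log2 fold changes from -4.2 to -2.22, Slamf9 in 13 (1.11 to 1.36), Scd1 in 12 (1.76 to 2.24) and Hepacam2 in 11 (1.18 to 1.73).

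Beyond the called genes, the 9 genes of smallest p among those higher at day 270 and the 11 among those lower are described by their values, taken from genes without overlap that reached 5 CPM in the higher group. limma called none of these 20, and DESeq2 called 16 of them, all 9 of the higher and 7 of the lower. Over all 12704 genes DESeq2 called 121. The 20 were chosen by small p and lack of overlap in the same reads, so the DESeq2 count is no separate evidence for them.

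Among the higher genes, Axl, a receptor tyrosine kinase that binds Gas6 and is known from macrophages that take up dead cells, had 92.8, 129 and 160.03 CPM at day 270 and 29.8, 26.3 and 39.6 CPM at day 60 (log2 fold change 1.96 ± 0.38, adjusted p 0.151). The summed monocyte and macrophage markers described at the end were higher in the same libraries (499.6 to 995 against 248 to 408 CPM). Sema3f, a secreted semaphorin, had 10.04, 25.8 and 22.1 against 0.890, 0.595 and 5.00 CPM. Cyp2b10, a cytochrome P450 of the xenobiotic response, had 6.08, 38.5 and 15.1 against 0.566, 2.02 and 1.52 CPM, and library 2 of day 270 was far above the other libraries. Mgarp, a mitochondrial protein gene, had 4.96, 13.96 and 8.12 against 1.46, 1.19 and 0 CPM.

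Further higher genes included enzymes of lipids and of the lysosome. Scd2, a further stearoyl-CoA desaturase next to Scd1 on chromosome 19, had 189.98, 249.95 and 311 CPM at day 270 and 133, 114 and 166 CPM at day 60. Tpp1, a lysosomal peptidase, had 136, 170.2 and 176 against 83.2, 83.6 and 91.2 CPM. Clic5, of the chloride intracellular channel family, had 54.1, 58.9 and 77.8 against 24.9, 25.2 and 34.9 CPM. Phf2, a histone demethylase, had 32.4, 40.003 and 39.5 against 13.99, 16.8 and 18.5 CPM. In each of the 9 genes, of which 8 are named, the lowest library of day 270 was above the highest of day 60, which the choice of these genes required.

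The lower genes stood at few reads, apart from Prg2, the gene of the major basic protein of eosinophil granules. Prg2 had 1274, 581 and 1202 CPM at day 270 and 2202, 1892 and 1655 CPM at day 60 (log2 fold change -0.98 ± 0.25, adjusted p 0.238). Fcrl5, an Fc receptor-like protein of B lineage cells, had no read at day 270 and 8.98, 1.67 and 4.74 CPM at day 60, 178 reads in all. It was at least 60.6-fold lower at day 270 against a floor of 3 reads over the group (adjusted p 0.158 by limma and 0.0444 by edgeR).

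Dfna5, which encodes gasdermin E, a pore-forming protein cut by caspase-3, had 0.439, 0 and 0 CPM at day 270 and 3.88, 11.2 and 5.72 CPM at day 60 (log2 fold change -3.47 ± 0.62, adjusted p 0.0660). Creg2 had 2.45, 0 and 0 against 6.47, 9.76 and 7.33 CPM. Pcf11, a cleavage and polyadenylation factor, had 8.72, 0 and 0.108 against 10.8, 13.8 and 21.3 CPM, so that library 1 of day 270 was close to library 1 of day 60 and libraries 2 and 3 of day 270 were near 0. Library 1 of day 270, the deepest, likewise stood highest of its group in Creg2, in the G protein-coupled receptor gene Gpr171 (3.01, 0.537 and 0.108 against 6.71, 7.61 and 6.88 CPM), in Noc3l, a nucleolar protein (4.45, 1.21 and 0 against 9.38, 7.14 and 8.13 CPM), and in the phospholipid scramblase gene Plscr1 (9.28, 0 and 3.03 against 17.3, 15.1 and 15.2 CPM). In 8 of the 12 lower genes, Fas among them, at least 1 library of day 270 had no read.

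Of the other lower genes, Trim59, a ubiquitin ligase, had 8.84, 4.30 and 8.44 against 23.4, 14.3 and 23.5 CPM. Pydc4, of the pyrin domain family, had 10.4, 4.43 and 5.08 against 23.7, 18.8 and 14.4 CPM. Hspa1b, a stress-inducible Hsp70 gene, had 0.125, 0 and 1.62 against 2.83, 10.5 and 5.36 CPM. Its near-identical copy Hspa1a had no read at day 270 and 0.324, 1.43 and 1.07 CPM at day 60, and reads of the pair may be split between them.

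The day difference in unmarked cells rests on other libraries, which carry the same 3 specimen numbers per day in the labels as the marked ones. limma called 0 genes in unmarked cells, with 378 (2.98%) at an unadjusted p under 0.05 and a smallest adjusted p of 0.154. There limma-voom and edgeR called 0 as well, and DESeq2 called 8. Of the 12 higher genes described above, the 3 called ones among them, all 12 had a positive unmarked difference, from 0.35 for Phf2 to 2.95 for Cyp2b10. Of all genes tested 66.4% had one, and the median over all genes in unmarked cells was 0.12 (0.01 with TMM). Of the 12 lower genes, 8 had a negative one, and the values ran from -2.57 for Hspa1b to 0.32 for Pcf11.

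A test of the difference between the marked and the unmarked change called 0 genes with limma (387, or 3.05%, at an unadjusted p under 0.05, and none with an adjusted p below 0.9999), limma-voom and edgeR called 0, and DESeq2 called 5. A marked and an unmarked library share each specimen, and limma with the specimen as a term, added after the data were seen, also called 0 (357 at an unadjusted p under 0.05, 4 residual degrees of freedom). The genes described were chosen by their day difference in marked cells, which is 1 side of the difference tested here, so nothing is read from how many of them had a low p. Among the higher genes, Mgarp and Phf2 had an unadjusted p under 0.05 in that test. Among the lower genes 10 of 12 had one, all but Prg2 and Hspa1b. Fas, Dfna5 and Pcf11 differed by -2.98, -3.51 and -3.75 on the log2 scale, with unadjusted p-values of 7.18e-04, 8.16e-04 and 0.00255. None passed over all genes.

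**Figure D3:**
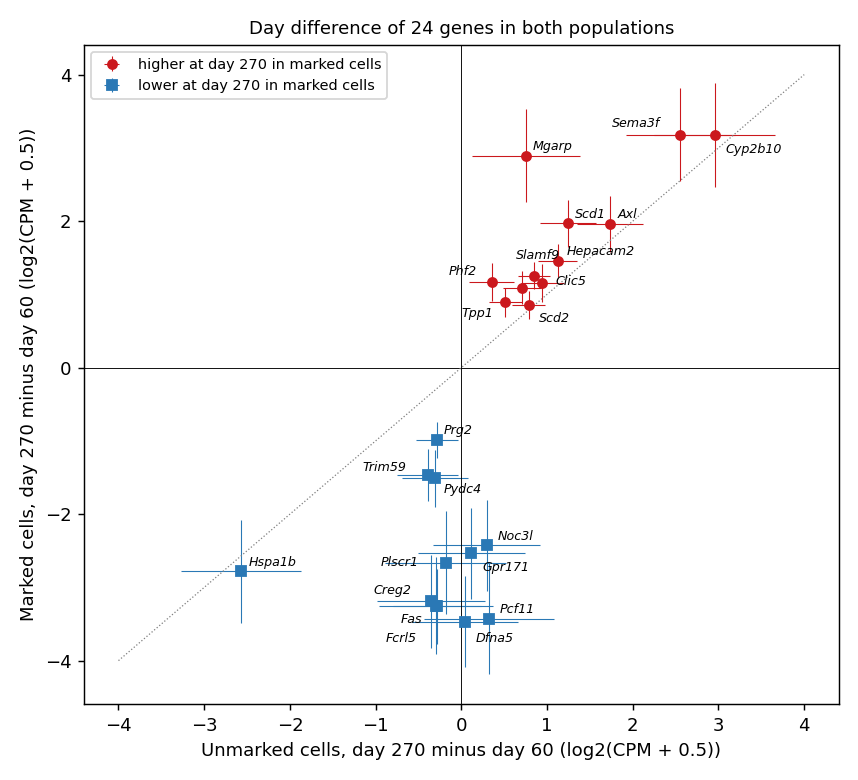
Day difference (log2 fold change of day 270 over day 60) in marked cells (y axis) against unmarked cells (x axis) for the 12 higher and 12 lower genes described, with standard errors as bars and the line of equality dotted. The 12 higher genes lie above 0 on both axes, and most lower genes lie near 0 in unmarked cells, with Hspa1b at -2.57.

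Genes of known roles were read as 27 groups, each by its counts and its median beside the median of all genes, 0.02. Besides Scd1 and Fas, no member of these groups was called. Members are given below with values where their groups of libraries did not overlap, or where overlap is stated. Of all genes 10.5% did not overlap, 6.46% higher and 4.04% lower at day 270.

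In sterol and fatty acid synthesis, 15 of 24 measured genes were positive and 9 negative, with a median of 0.10 (-0.01 with TMM). Scd1 was called, and Scd2 and Sqle were higher at day 270 without overlap. Sqle, which encodes squalene epoxidase of cholesterol synthesis, had 8.97, 16.2 and 13.4 CPM at day 270 and 5.01, 3.81 and 6.43 CPM at day 60 (adjusted p 0.404).

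In the lysosome group, 22 of 27 genes were positive and the median was 0.23 (0.11 with TMM). The group holds acid hydrolases and subunits of the proton pump. Ctsb, which encodes cathepsin B, had 1899, 1824 and 2109 CPM at day 270 and 1572, 1309.8 and 1544 CPM at day 60, with 0.40 as its log2 fold change (adjusted p 0.412). Atp6v1a, a subunit of the pump, had 76.02, 90.9 and 75.1 against 67.5, 54.4 and 62.2 CPM. In all, 4 members were higher without overlap (5 with TMM) and none was lower. Among 22 autophagy genes, 16 were positive with a median of 0.06 (-0.05 with TMM), and Sqstm1, the gene of the autophagy receptor p62, had 643, 584 and 717 against 469, 499.9 and 509 CPM.

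Among survival and TNF family receptors, 10 of 16 were positive and 6 negative, with a median of 0.29. Against the fall of Fas, Tnfrsf1b, the gene of TNF receptor 2, had 27.3, 26.8 and 27.1 CPM at day 270 and 11.6, 11.7 and 13.8 CPM at day 60. Its 3 libraries within a day lay close together, and the log2 fold change was 1.11 ± 0.33 (adjusted p 0.298). Traf1, a TNF receptor adaptor, was lower without overlap, with 20.2, 23.9 and 24.9 against 27.1, 30.1 and 33.9 CPM. Tnfrsf17, which encodes BCMA, had 401, 291 and 396 against 405, 358 and 359 CPM with overlapping groups (log2 fold change -0.06 ± 0.16).

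Mcl1, of which every mouse carried 1 floxed allele, had 417, 384 and 513 CPM in marked cells at day 270 and 342, 392 and 508 CPM at day 60. Unmarked cells had 527, 589.6 and 549.6 CPM at day 270 and 538, 483 and 539 CPM at day 60. The marked groups overlapped (log2 fold change 0.09 ± 0.17, adjusted p 0.901), and the sources used here do not say whether the allele was recombined in marked cells. In the Bcl2 family 12 of 15 genes were positive, with a median of 0.17. Bcl2l1, which encodes the anti-apoptotic Bcl-xL, had 13.2, 19.3 and 17.5 CPM at day 270 and 7.60, 5.83 and 8.31 CPM at day 60, and its adjusted p was 0.361. The pro-apoptotic members Bbc3 (Puma) and Pmaip1 (Noxa) were also higher without overlap, with 29.04, 24.97 and 34.3 against 18.3, 12.6 and 21.2 CPM and 40.6, 49.8 and 53.2 against 30.7, 24.1 and 37.2 CPM. Bcl2 itself had a log2 fold change of -0.03 ± 0.23, with overlap.

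The genes that define the plasma cell state did not pass the test in either direction. Of 20 identity genes 13 were positive, with a median of 0.19. Prdm1 had 176, 157 and 266 CPM at day 270 and 129, 150.3 and 185 CPM at day 60, Irf4 856, 551 and 825 and 603, 577 and 726 CPM, and Xbp1 5810.4, 4754 and 6134 and 4744, 3931 and 4885 CPM. The days overlapped for each of these 3 regulators. Il6ra, the receptor of the survival cytokine IL-6, was higher without overlap at 37.7, 39.7 and 43.9 against 14.8, 24.03 and 32.4 CPM (adjusted p 0.406). Jchain, the joining chain of IgM and IgA, had 205393, 79037 and 154095 against 312679, 202824 and 214493 CPM, with overlap and with library 2 of day 270 the lowest of all (log2 fold change -0.81 ± 0.54).

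Among genes of the secretory machinery, counts without overlap moved with the scaling. The 33 genes of endoplasmic reticulum translocation and vesicle transport had a median of -0.04 and a range of -0.48 to 0.38, with 12 positive and no member without overlap in either direction. With TMM their median was -0.15, beside -0.08 for all genes, with 6 positive and 4 lower without overlap, and with totals that leave out features resembling ribosomal RNA and Jchain 8 were positive and 3 lower without overlap. The 30 proteasome genes had a median of 0.00 (-0.11 with TMM) and a range of -0.56 to 0.37. Of 24 genes of the unfolded protein response, 15 were positive (median 0.10, and -0.01 with TMM), and Ddit3, the stress factor CHOP, was the 1 member without overlap at 16.4, 14.4 and 25.6 against 9.22, 8.92 and 13.2 CPM. With either of those other scalings 1 member of this group was higher and 4 were lower without overlap. Among 18 genes of amino acid supply and the integrated stress response, 9 were positive and 9 negative.

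**Figure D4:**
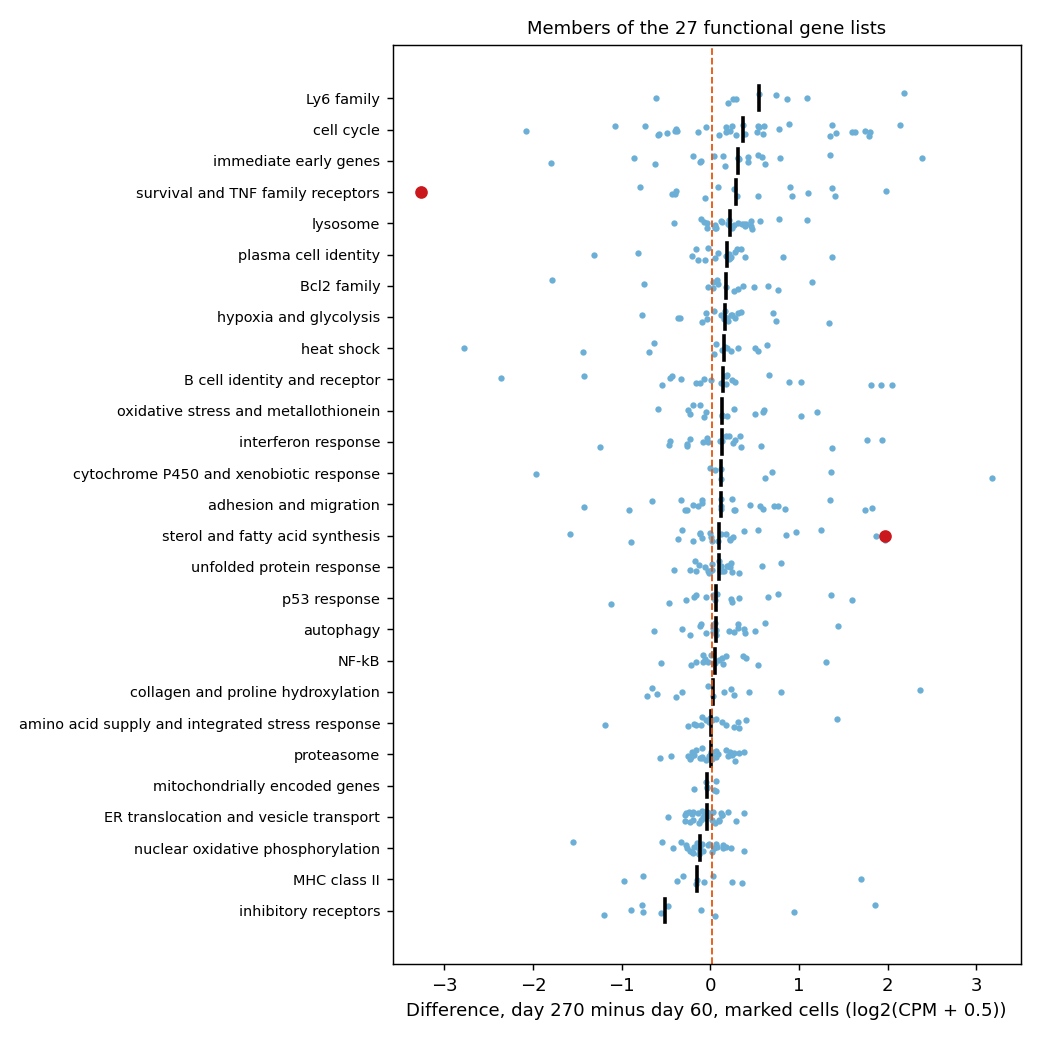
Log2 fold change of day 270 over day 60 in marked cells (x axis) of each measured member of 27 gene groups (y axis); black bars are group medians and the dashed line is the median of all genes, 0.02. The red points are the called members, Fas and Scd1, and the medians run from -0.52 for inhibitory receptors to 0.55 for the group labelled Ly6 family.

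Energy metabolism showed small values. Among 29 nuclear genes of oxidative phosphorylation, 19 were negative with a median of -0.12 (-0.23 with TMM). Without overlap 3 were lower and 1 higher, and with TMM, where 5 of 29 were positive, 6 were lower and 1 higher. Of all genes 4.04% were lower and 6.46% higher without overlap, and with TMM 7.16% and 5.4%. Ndufa2, of complex I, was lower without overlap at 144, 112 and 132 against 165, 154 and 166 CPM, whereas Sdha, of complex II, was higher at 241, 247 and 286 against 169.95, 201 and 225 CPM. The 7 mitochondrially encoded genes ranged from -0.19 to 0.07 with 3 positive, and with TMM 0 were positive (median -0.15). In hypoxia and glycolysis 15 of 21 were positive, with a median of 0.17, and Vegfa, the angiogenic growth factor, had 14.9, 22.8 and 31.1 against 7.04, 7.14 and 11.6 CPM. P4ha2, a prolyl hydroxylase of collagen, had 16.8, 20.9 and 28.5 CPM at day 270 and 3.32, 2.62 and 6.08 CPM at day 60, and its difference was 2.37 ± 0.61 on the log2 scale (adjusted p 0.256). The related gene P4ha1 had 68.7, 60.9 and 97.1 against 38.3, 35.3 and 56.6 CPM, and the other members left the median of that group of 13 at 0.03 (-0.08 with TMM).

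On the cell surface, the Ly6 group had the highest group median, 0.55 (0.44 with TMM). Of its 9 measured members 8 were positive and 5 higher without overlap (4 with TMM). Its list also held Ly86, a gene outside the Ly6 family. Ly6c2 had 1648, 4442 and 2829 CPM at day 270 and 1308, 1062 and 1529 CPM at day 60, and Ly6d 1242, 1212 and 1349 against 939, 687 and 671 CPM. Ly6a, which encodes Sca-1, had 2568, 2411 and 3048 against 2256, 2189 and 2228 CPM, a log2 fold change of 0.26 ± 0.18 (adjusted p 0.664). Ly6c2 and Ly6c1 are near-identical copies, and reads may be split between them. Epcam, an epithelial adhesion molecule, had 253, 275 and 273 CPM at day 270 and 118, 140.5 and 196 CPM at day 60 (log2 fold change 0.85 ± 0.22, adjusted p 0.256). Its day 270 libraries lay closer together than those of day 60.

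Among 25 genes of adhesion and migration, 15 were positive with a median of 0.12. Ccr9, the receptor of the gut chemokine CCL25, had 14.7, 19.1 and 30.2 against 7.44, 2.26 and 8.94 CPM, and Itgb2, the integrin chain of LFA-1, was lower at 286, 278 and 275 against 314, 324 and 370.5 CPM. Cxcr4, which holds plasma cells in the marrow through CXCL12, overlapped at 312, 160.1 and 285 against 314, 290.4 and 309 CPM, with library 2 of day 270 apart from the rest. Inhibitory receptors had the lowest median, -0.52, with 7 of 10 members negative, while their median in unmarked cells was 0.39. Without overlap, however, 2 members were higher and 1 was lower. Of the higher ones, Cd300a had 3.45, 3.62 and 8.33 against 2.02, 1.55 and 3.40 CPM (adjusted p 0.717), and the lower one was Btla. Btla had 177, 48.1 and 172 against 243, 210.4 and 185 CPM, and its low day 270 value was again in library 2. Without library 2 of both days the median of the inhibitory receptors was -0.20, and the median of all genes was then 0.16.

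Genes that plasma cells turn down as they leave the B cell state were also read. MHC class II genes had a median of -0.15 with 4 of 11 positive. H2-Aa had 86.1, 47.8 and 157 CPM at day 270 and 112, 62.6 and 54.8 CPM at day 60, H2-Ab1 326, 254 and 389 and 414, 287 and 313 CPM, and the invariant chain gene Cd74 9290.3, 7684 and 10154 and 8226, 8766 and 9487 CPM. All 3 overlapped between days. H2-DMb1, which loads peptide onto class II, was lower without overlap at 15.7, 16.8 and 25.1 against 28.1, 27.1 and 43.98 CPM. Of 22 B cell genes 13 were positive, with a median of 0.15. Ebf1, a B lineage transcription factor, had 3.83, 10.3 and 8.76 against 1.29, 2.50 and 0.983 CPM.

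Cell cycle genes had a median of 0.37 (0.26 with TMM), with 24 of 35 positive. Without overlap 7 were higher and 1 lower, beside 6.46% and 4.04% of all genes. With TMM 5 were higher and 1 lower, beside 5.4% and 7.16%. In unmarked cells the median of the cell cycle genes was -0.07. Cdc20, which activates the ubiquitin ligase of anaphase, had 4.77, 3.09 and 7.36 CPM at day 270 and 0.566, 1.90 and 0.179 CPM at day 60 in marked cells. In unmarked cells it had 18.04, 12.03 and 11.4 CPM at day 270 and 10.1, 19.1 and 19.5 CPM at day 60, with overlap. Its day difference was higher in marked cells by 2.34 ± 0.79 (unadjusted p 0.00830, adjusted p 0.9999). Rrm1, a subunit of ribonucleotide reductase, had 42.5, 37.5 and 46.6 against 25.1, 35.3 and 26.8 CPM, and Cdc45, a replication helicase factor, was lower at 0.439, 0 and 0 against 2.67, 1.55 and 2.23 CPM. Mki67 overlapped, with 16.2, 23.4 and 28.5 against 8.09, 23.2 and 24.4 CPM.

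Among stress and signalling groups, oxidative stress and metallothionein genes had 4 of 16 members higher without overlap and a median of 0.14 (0.02 with TMM). With TMM 3 were higher and 1 lower without overlap. Mt1 and Mt2, metal-binding proteins, had 764, 864 and 804 against 489.6, 631 and 595 CPM and 548, 588 and 576 against 289, 383 and 488 CPM. Hmox1, heme oxygenase 1, had 164, 184 and 156 against 86.6, 70.8 and 91.7 CPM. Nox1, an NADPH oxidase, had 205, 254 and 181 against 129, 119.7 and 172 CPM. Immediate early genes had a median of 0.31 with 14 of 20 positive, and Klf2, a quiescence and migration regulator of lymphocytes, had 19.6, 6.58 and 6.92 against 1.86, 2.26 and 0.626 CPM. The interferon response had 12 of 21 positive (median 0.13), with Ifih1, the RNA sensor MDA5, at 4.01, 7.25 and 17.96 against 1.21, 2.02 and 2.15 CPM. In the heat shock group 10 of 14 were positive (median 0.15), while Hspa1a and Hspa1b were lower. In the P450 group, which holds Cyp2b10, 7 of 9 were positive (median 0.12). The p53 response had a median of 0.06 and NF-kB 0.05, each -0.05 with TMM.

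Markers of other marrow cells were read as sums per library, and those of monocytes and macrophages moved with the day in the marked libraries. Monocyte and macrophage markers summed to 499.6, 625 and 995 CPM at day 270 and to 275, 248 and 408 CPM at day 60, without overlap. Of 16 markers 15 were positive and 9 were higher without overlap (8 with TMM), beside 6.46% of all genes (5.4% with TMM). The median of these markers was 1.34 (1.23 with TMM), beside 1.14 in unmarked cells, and each had reads in both marked groups. Csf1r, the receptor of the macrophage growth factor, had 7.97, 24.7 and 18.9 CPM at day 270 and 1.86, 1.19 and 2.68 CPM at day 60, and the complement gene C1qa 28.4, 36.8 and 89.3 against 16.3, 7.26 and 22.3 CPM. Vcam1, an adhesion molecule of marrow stroma and macrophages, had 41.5, 59.6 and 79.9 against 15.3, 10.7 and 30.2 CPM. In unmarked libraries the sums ran from 301 to 631 CPM at day 270 and from 156 to 437 CPM at day 60. The part of this RNA in the differences of Axl, Hmox1, Vcam1 and the lysosome genes, and of the called genes, was not tested.

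The other marker sums overlapped between days or were small. Erythroid markers, mostly globins, summed to 185, 802 and 685 CPM at day 270 and to 108, 350.5 and 252 CPM at day 60. Neutrophil markers summed to 94.0, 553 and 608 CPM at day 270 and to 1.94, 882 and 221 CPM at day 60, so the libraries of 1 day differed more than the days. T and NK cell markers summed to 22.8, 26.7 and 35.9 CPM against 19.9, 17.4 and 7.87 CPM, the days not overlapping, and of 10 measured markers 2 had no read at day 270 and 2 had none at day 60. Megakaryocyte markers summed to 22.1 to 44.6 CPM against 17.5 to 21.6 CPM, also without overlap. Plasma cell markers, mostly Jchain, summed to 89990 to 219796 CPM at day 270 and to 214057 to 325847 CPM at day 60.

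**Figure D5:**
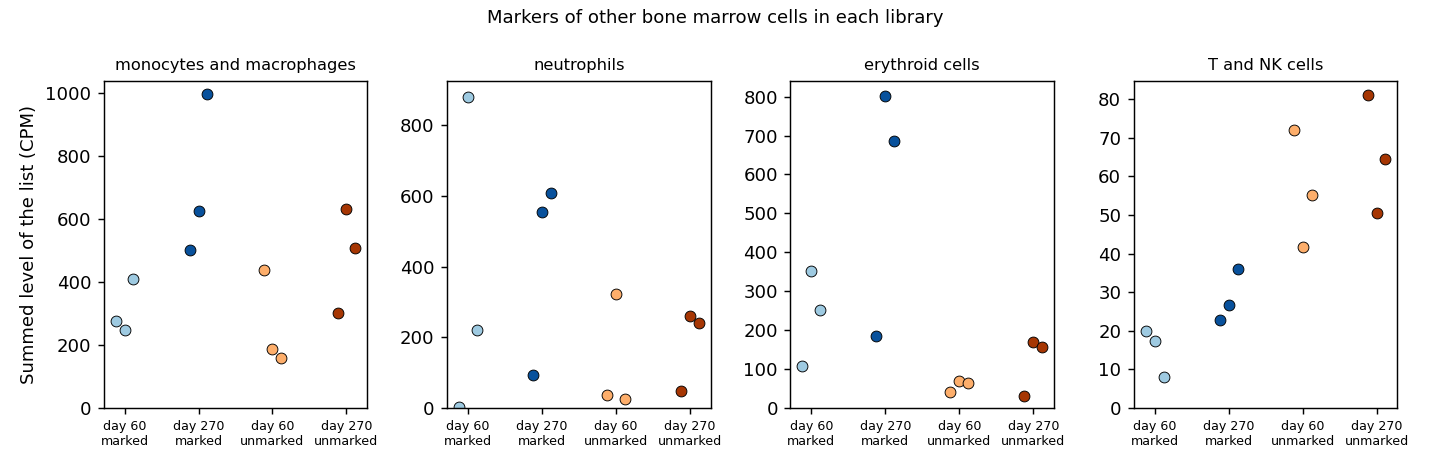
Summed level (CPM) of markers of 4 other marrow cell types in each library, by day and population; each point is 1 library. Monocyte and macrophage markers are higher in the 3 marked libraries of day 270 (499.6 to 995 CPM) than in those of day 60 (248 to 408 CPM), and neutrophil markers vary most within a group.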

How the data were processed

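Libraries of sorted bone marrow plasma cells were sequenced after RNA extraction with a RNeasy Micro kit and library preparation with a TruSeq RNA kit, per the labels' protocols. The submitters' processing notes name GRCm38 and limma, without a stated version or role. Aligner, read counter, annotation and the use of strand in counting: not given in the sources used here. Per the file headers, the authors' table of 14219 genes gives CPM per library. Beside it stand the authors' log2 fold changes, p-values and FDR for another comparison, which were not used. A second deposited table gives counts of 230 genes. Multiplied by a library total, CPM gave whole reads. The tolerance was 0.05, and it was met by all 151331 values under 1000 reads. The deposited counts of the 230 genes were matched in 100% of values. The totals, 7449468 to 15943547 reads in marked libraries, cover the genes of the table only. Floors and chi-square values concern counting error only.

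The two-sided test was that of limma 3.58.1 (R 4.3.3, trended prior) on log2(CPM + 0.5), with all 12 libraries, 1 coefficient per group and 8 residual degrees of freedom. Genes were filtered by edgeR 4.0.16 (filterByExpr, recovered reads, 10 reads in 3 libraries, scaled to depth), which left 12704 genes and dropped 1515. Alternatives were limma-voom, edgeR, DESeq2 1.42.0, TMM, other filters and pseudocounts, fewer libraries, library weights and a replicate block. TMM for genes without overlap and for group medians, and fits with the specimen, were added after the data were seen. Genes are named by a rule: the 12 largest called rises and falls, filled to 12 by smallest unadjusted p among genes without overlap and a level of 5 CPM or more on the higher side; called members of the gene groups; the largest rise and fall of each group; and 20 genes of plasma cell biology. Further members without overlap and the marker genes were named after their values were seen. The members, groups and markers were chosen with earlier results of these data known. Gene positions come from GENCODE M21 (14165 of 14219 identifiers matched), and 19 symbols that a spreadsheet had turned into dates were restored. The 3 libraries of a group have separate specimen numbers in the labels, which do not say what a specimen is. The p-values of the main fit measure the spread between libraries within groups, pooled over marked and unmarked groups. That spread is not the one of the marked libraries alone. Some genes that the rule names are not reported here. Code was tested on simulated data.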

Additional observations from a re-analysis of the deposited data

How the results depend on the processing

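The number of genes called in marked cells was 4. It was 0 with limma-voom, 2 with edgeR, 121 with DESeq2 (65 higher, 56 lower), 0 with only the 6 marked libraries fitted and 0 without library 2 of both days, and leaving out 1 library at a time gave 0 to 151. It stayed between 3 and 5 with TMM (2 higher and 2 lower, 3 of the 4 genes among them), other filters and pseudocounts, library weights, and totals without features resembling ribosomal RNA and Jchain. With a pseudocount of 0.1, however, only 2 of the 4 genes were among the 3 called. There limma did not call Fas (adjusted p 0.158) or Scd1 (adjusted p 0.0559). In unmarked cells, with 0 called, DESeq2 called 8 and library weights 79. For the difference between the populations, with 0 called, DESeq2 called 5, and leaving out 1 marked library at a time gave 0 to 1, and the specimen as a term or as a random block, added after the data were seen, gave 0. The cause of these changes was not tested. With a replicate block the counts were 4, 0 and 0, the same 4 genes among them in marked cells. Numbers 1, 2 and 3 join different specimens between days, and deviations of libraries with 1 number correlated at 0.127, 0.0404 and 0.0270, so the block was not taken as pairing. No called value changed its direction in these alternatives. Values of Bcl2, H2-Aa and Mki67, which were not called, changed sign and shifted by at least 1 standard error when a library was left out. Called genes also shifted, in the same direction. Hepacam2 went from 1.46 ± 0.23 to 1.73 without library 1 of day 270, and Fas from -3.26 ± 0.52 to -2.60 without library 2. The lower genes rest on few reads, 37 for Fas at day 270, so levels near 0 were not separable at this depth.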
